A study of Mus musculus with 3 samples.

Results

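The comparison described here sets 5-hydroxymethylcytosine (5hmC) in the cerebellum of mice under chronic sleep deprivation against that of control mice, over large stretches of the genome. Its members are the 10 kb bins of the 19 autosomes that carry a deposited value in both DDD-seq libraries. There are 239320 of them, of 264399 bins in the whole table and 239486 on autosomes. They were grouped into 23970 windows of 100 kb and 2401 windows of 1 Mb. A window was kept when at least 5 of its 10 bins, or 50 of its 100 bins, had a value in both libraries, and its level is the mean of those bins.

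The study deposited 3 libraries of genomic DNA from mouse cerebellum, 1 a group. The control and the sleep-deprived tissue were each profiled by DDD-seq, in which 5hmC is glycosylated and the remaining cytosines are deaminated in double-stranded DNA by SsdAcat, so that protected cytosines are read as 5hmC. The remaining library, by ACE-seq, carries the treatment label normal/control and serves as the third reference; its protocol text names the same deaminase. The labels give no strain, age, sex, number of animals or length of deprivation, and the column names of both DDD-seq libraries carry the word "all", so animals or runs may be pooled in them. With 1 library a side there is no replicate error and no test: each difference is one between libraries, and errors given as SE describe the scatter between windows or bins, not between animals.

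5hmC is made when TET enzymes oxidise 5-methylcytosine. It is abundant in neurons, where it lies mainly within the bodies of expressed genes and is scarce at CpG-rich gene starts. Most cells of the cerebellum are granule neurons, so a library of the whole tissue is weighted towards them. In a library of bulk tissue, a changed mixture of cells and a changed level within cells cannot be told apart.

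Both libraries had nearly the same autosomal level. Over the member bins the mean was 1.56% in the control and 1.56% in the sleep-deprived library, a sleep-deprived minus control difference of 0.00439 percentage points, and the ACE-seq library had 1.52%. The medians were 1.38%, 1.38% and 1.35%. The sleep-deprived library was higher in 50.4% of bins. Bins listed at 0 made up 0.643% in the control, 0.376% after sleep deprivation and 0.683% by ACE-seq. With bins at 0 in either DDD-seq library left out, the difference was 0.00154 points. The table gives no read counts, so the depth behind a value is unknown.

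Levels of 1 Mb windows ran close to the diagonal. Across the 2401 windows, Pearson's r between control and sleep-deprived levels was 0.981 and Spearman's rho 0.967, as a description over windows of the same libraries. At 100 kb r was 0.908, and at 10 kb it was 0.690. Control and ACE-seq levels had r of 0.978 at 1 Mb and 0.896 at 100 kb. The sleep-deprived library was higher in 1263 of the 1 Mb windows and lower in 1138, and the central 95% of differences lay between -0.117 and 0.133 points. Its spread, an SD of 0.0701 points, was about that of ACE-seq minus control (0.0755 points) and of sleep-deprived minus ACE-seq (0.0708 points).

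**Figure D1:**
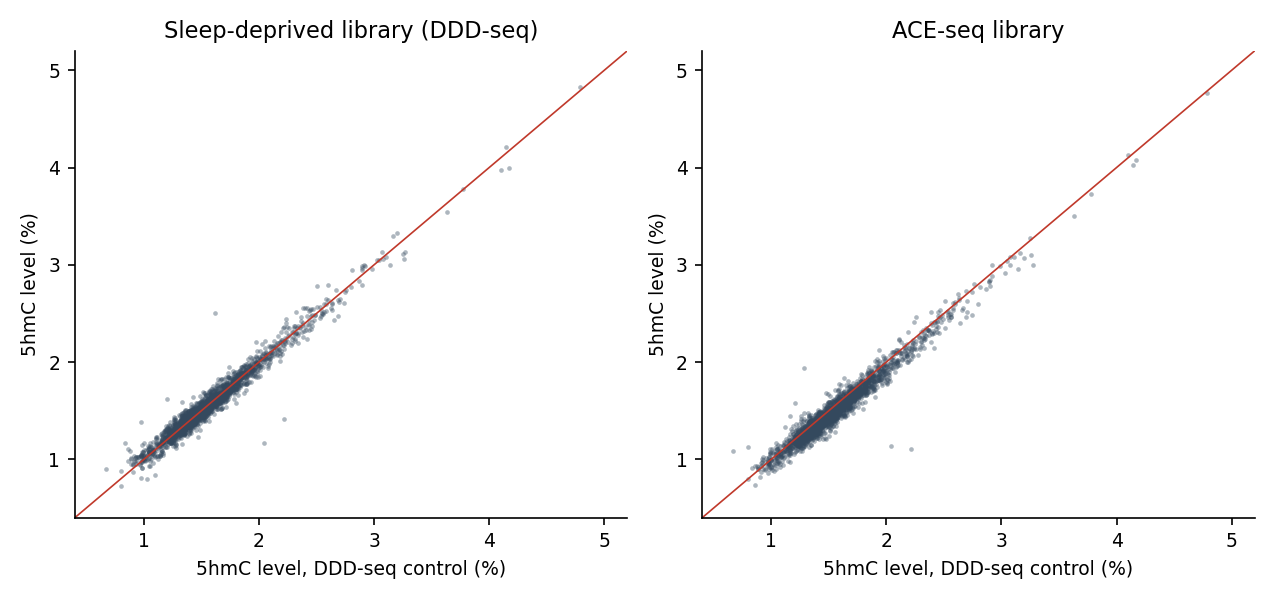
5hmC level (%) of 2401 autosomal windows of 1 Mb in the DDD-seq control (x axis) against the sleep-deprived DDD-seq library (left) and the ACE-seq library (right); each point is a window and the line marks equal levels. Points follow the line in both panels (r 0.981 on the left, 0.978 on the right), with the ACE-seq points slightly below it.

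Few large windows differed by a sizeable amount. At 100 kb, 235 windows were higher in the sleep-deprived library by at least 0.5 points (0.98% of all) and 223 were lower by as much (0.93%), 1.91% in either direction. The same bound was passed by 2.83% of windows for ACE-seq minus control and by 2.42% for sleep-deprived minus ACE-seq. At 1 Mb, with a bound of 0.2 points, 13 windows were higher (0.541%) and 8 lower (0.333%), 0.875% in all, against 1.67% for ACE-seq minus control and 1.58% for sleep-deprived minus ACE-seq. The ACE-seq pairs also carry an offset of about 0.05 points in the mean (-0.0453 and 0.0496 points at 1 Mb), and all 3 pairs share libraries with each other.

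The sleep-deprived library stood apart from both others in no more windows than the control did, adding both directions. At 100 kb it lay above both other libraries by at least 0.5 points in 76 windows (0.317%) and below both in 38 (0.159%). The DDD-seq control lay above both in 92 windows (0.384%) and below both in 42 (0.175%). The ACE-seq library lay above both in 54 (0.225%) and below both in 108 (0.451%). At 1 Mb, with 0.2 points, the sleep-deprived library was above both in 6 windows (0.25%) and below both in 0, and the control in 5 (0.208%) and 2 (0.0833%). With each library scaled to the same autosomal mean, the sleep-deprived library was the highest of the 3 in 32.7% of 1 Mb windows and the lowest in 32.2%.

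Differences were not shared between neighbouring windows. The level itself was shared between neighbouring windows, with a correlation of 0.561 between adjacent 100 kb windows in the control and 0.579 in the sleep-deprived library. The difference was not: its correlation between adjacent 100 kb windows was -0.0405, and -0.000935 with bins of 20% or more left out. Between adjacent 1 Mb windows it was 0.0250. Of the 458 windows of 100 kb past 0.5 points, 49 pairs were adjacent, 19 with the same direction and 30 with opposite directions. These are descriptions over windows of 1 pair of libraries, over 23912 and 2381 adjacent pairs.

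The spread of the difference fell with window size much as averaging over separate bins makes it fall. The SD was 0.697 points at 10 kb, 0.245 at 100 kb and 0.0701 at 1 Mb. Each step joins 10 smaller units, for which separate errors give a fall of 3.16-fold, and the falls were 2.84-fold and 3.50-fold. A robust SD, from the median absolute deviation, fell by 2.98-fold and 2.89-fold, from 0.492 to 0.165 and 0.0571 points. For ACE-seq minus control the robust SD fell by 2.93-fold and 3.01-fold.

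**Figure D2:**
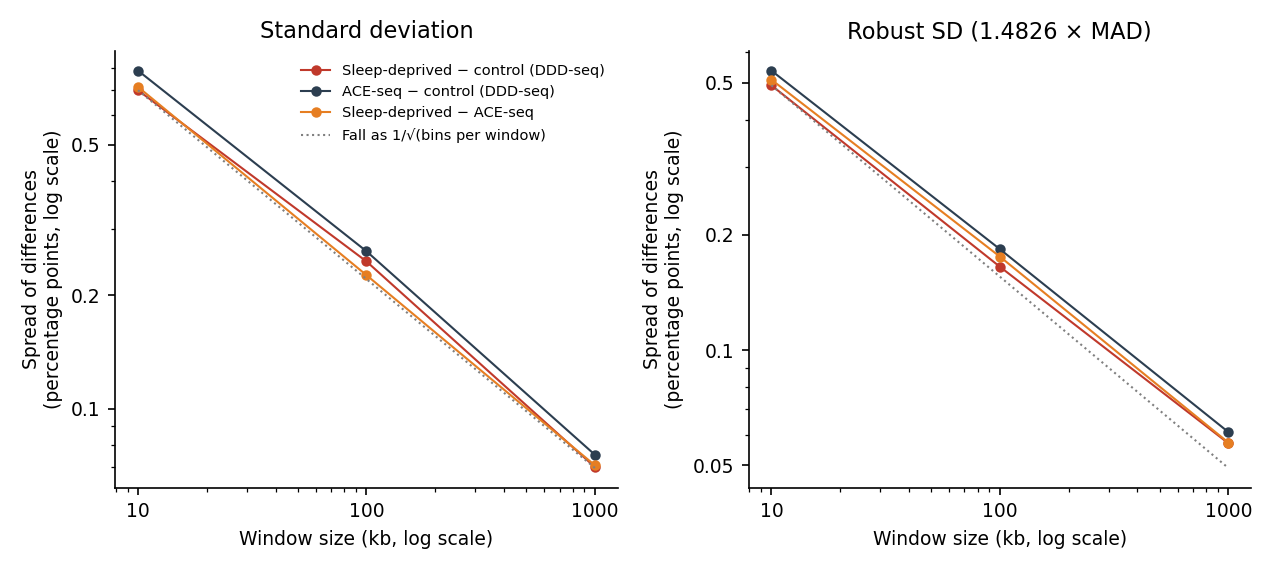
Spread of the difference between libraries (percentage points, log axis) against window size (kb, log axis) for the 3 pairs of libraries, as SD (left) and as a robust SD (right). The dotted line starts at the sleep-deprived minus control value at 10 kb and falls with the square root of the number of bins; all 3 pairs run near it, and the robust SD at 1 Mb (0.0571 points for sleep-deprived minus control) lies above it.

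Interleaved bins of a window gave nearly uncorrelated differences. Each window was read once from its odd-numbered and once from its even-numbered bins. For levels in the control, both readings agreed closely, with r of 0.737 at 100 kb and 0.925 at 1 Mb. For the difference, r was 0.00733 at 100 kb and -0.0247 at 1 Mb. The 50 windows of 1 Mb with the highest difference over odd bins averaged 0.268 points there and -0.00840 points over their even bins, of which 23 were above 0. The 50 lowest averaged -0.295 points over odd bins and 0.00940 points over even bins, of which 22 were below 0.

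Genic and intergenic windows differed slightly in direction. A 100 kb window was called genic when at least 50% of its bins overlap a protein-coding gene and intergenic when none does. The 12034 genic windows had means of 1.71% in the control, 1.71% in the sleep-deprived library and 1.66% by ACE-seq. The 8395 intergenic windows had 1.42%, 1.43% and 1.38%. Sleep-deprived minus control was -0.00159 ± 0.0022 points (SE over windows) in genic and 0.0133 ± 0.0025 points in intergenic windows, and 0.00544 ± 0.0045 points in the 3541 windows between. The excess of genic over intergenic level was therefore 0.288 points in the control, 0.273 points after sleep deprivation and 0.285 points by ACE-seq. The contrast between both classes was -0.0149 points, which is small beside the SD of 0.242 points over genic windows.

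The same order was seen at 1 Mb. The windows were ranked by their share of genic bins and divided into 4 classes of about equal size. In the class with the fewest genic bins (up to 24%), 388 of 611 windows were higher in the sleep-deprived library, 63.5%, with a mean of 0.0179 ± 0.0029 points. In the next class 337 of 614 were higher, 54.9%, with a mean of 0.00539 points. In the third class 270 of 576 were higher, 46.9%, with a mean of -0.00193 points. In the most genic class (70% of bins or more), 268 of 600 were higher, 44.7%, with a mean of -0.0047 ± 0.0023 points. The ACE-seq minus control difference, which shares the control, was -0.0355 points in the least genic and -0.0518 points in the most genic class. Sleep-deprived minus ACE-seq, which does not use the control, was 0.0534 and 0.0471 points. With bins at 0 left out, the most genic minus the least genic class was -0.0171 points, against -0.0226 points with them.

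**Figure D3:**
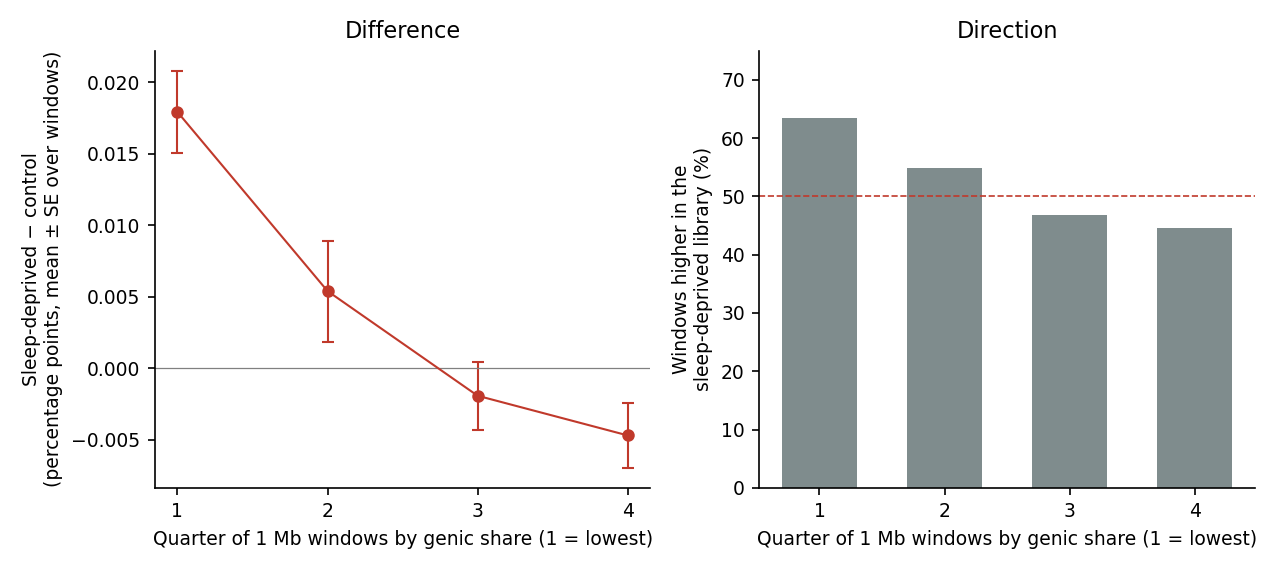
Windows of 1 Mb in 4 classes by the share of their bins that overlap a protein-coding gene. Left, sleep-deprived minus control (percentage points, mean, with bars of ± SE over windows), from 0.0179 in the least to -0.0047 points in the most genic class; right, the percentage of windows higher in the sleep-deprived library, from 63.5% to 44.7%, with a dashed line at 50%.

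Bins listed at 0 moved with these classes. In intergenic bins, 0 was listed for 0.912% in the control, 0.512% in the sleep-deprived library and 0.971% by ACE-seq. In genic bins the shares were 0.336%, 0.221% and 0.355%. The genic minus intergenic contrast at 100 kb was -0.00953 points without bins at 0, so its sign did not rest on them. Whether depth or conversion differed between libraries along with gene content was not tested.

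Bins that hold a gene start were then set apart by the CpG content of the start, by a choice made after the values of the windows were seen. The RefSeq table of GRCm38.p6 promoters gives 300 bases for each start, 250 before and 50 after it, and 20085 such sequences of 16457 protein-coding genes were used. A start was called CpG-rich with at least 15 CG in the 300 bases (48.1% of the sequences) and CpG-poor with at most 5 (31.4%). CG reads the same on both strands. The 250 bases before the start are shown for 2 genes named below, since their windows were among the 10 of 1 Mb with the highest difference and they stand on either side of this division; capitals mark CG.
Gria2: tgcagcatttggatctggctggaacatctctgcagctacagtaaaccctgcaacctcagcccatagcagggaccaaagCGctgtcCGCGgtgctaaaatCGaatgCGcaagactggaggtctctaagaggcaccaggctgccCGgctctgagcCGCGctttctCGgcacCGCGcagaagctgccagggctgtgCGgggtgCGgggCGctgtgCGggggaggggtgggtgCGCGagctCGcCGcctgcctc
Nlrc3: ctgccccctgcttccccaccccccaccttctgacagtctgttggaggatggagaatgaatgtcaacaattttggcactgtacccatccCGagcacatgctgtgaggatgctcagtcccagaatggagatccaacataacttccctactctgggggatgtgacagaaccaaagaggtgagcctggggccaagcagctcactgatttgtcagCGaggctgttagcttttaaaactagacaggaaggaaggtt
The Gria2 sequence is at chr3:80802836-80803085 on the minus strand and the Nlrc3 sequence at chr16:3976633-3976882 on the minus strand. Both lie within the annotated genes, which reach to 80804227 and 3979017, so each precedes a start inside its gene. The Gria2 window of 300 bases holds 26 CG and that of Nlrc3 holds 2.

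Bins with a CpG-rich start were lower in the sleep-deprived library. Over 7845 such bins the mean was 1.41% in the control, 1.38% in the sleep-deprived library and 1.40% by ACE-seq. Sleep-deprived minus control was -0.0266 ± 0.0038 points (SE over bins), with a median of -0.0183 points, and 52.5% of the bins were lower. ACE-seq minus control was -0.00811 points in the same bins and -0.0106 points with CpG-poor starts. It was -0.0513 points in genic bins without a start and -0.0432 points in intergenic bins, so this offset also varied with the class. Sleep-deprived minus ACE-seq, which does not use the control, was -0.0185, 0.00587, 0.0509 and 0.0545 points in the same order. In the 5279 bins whose starts were CpG-poor sleep-deprived minus control was -0.00477 ± 0.0097 points. In the 3137 bins with a start between both bounds it was -0.0419 ± 0.0327 points, lower than with CpG-rich starts, but with a median of 0.00111 points and a mean of -0.0100 points without bins of 20% or more. No promoter sequence of chromosome 18 was used here, so its bins with a start count as genic without one. In the 95564 genic bins without a start sleep-deprived minus control was -0.000419 ± 0.0023 points, or 0.000517 ± 0.0023 points over the 18 autosomes with promoter sequences, and in intergenic bins 0.0114 ± 0.0018 points. Whether the difference is particular to CpG-rich starts was not tested. Single bins with CpG-rich starts also varied less, with an SD of the difference of 0.339 points against 0.706 points in genic bins without a start. The start bin of Gria2 had 1.42% in the control, 1.08% in the sleep-deprived library and 1.69% by ACE-seq. That of Nlrc3 had 1.15%, 1.05% and 1.23%. With windows made without bins of CpG-rich starts, the genic minus intergenic contrast at 100 kb was -0.0134 points.

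Windows were next classed by their level in the ACE-seq library, which is on neither side of the difference. In the 1512 windows under 1%, sleep-deprived minus control was 0.0105 ± 0.0100 points (SE over windows). It was 0.00681 ± 0.0019 points in 13681 windows of 1 to 1.5%, 0.00263 ± 0.0025 points in 5906 windows of 1.5 to 2% and -0.0116 ± 0.0050 points in 2237 windows of 2 to 3%. In the 634 windows of 3% or more it was 0.0210 ± 0.0212 points. The share of windows higher in the sleep-deprived library was 51.1%, 51.2%, 49.4%, 47.2% and 51.6% in the same order. Of these means, those of 1 to 1.5% and of 2 to 3% were more than 2 SE over windows from 0, which is no test between animals. With each library scaled to the same autosomal mean, these 2 classes were at 0.00208 and -0.0169 points.

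Classing by a library that enters the difference turned it. With classes set on the DDD-seq control, the difference was 0.193 points in windows under 1% and -0.0773 points in those of 3% or more. With classes set on the sleep-deprived library it was -0.154 and 0.0879 points. The mean of the class of 3% or more was -0.00449 points with bins of 20% or more left out, so its sign rested on few bins.

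The spread was widest at the highest level and narrowest in the middle classes. The SD of the difference was 0.389 points under 1%, 0.221 at 1 to 1.5%, 0.191 at 1.5 to 2%, 0.237 at 2 to 3% and 0.534 at 3% or more. The central 95% of differences ran from -0.420 to 0.442 points in windows under 1%, from -0.334 to 0.364 points in those of 1 to 1.5% and from -0.728 to 0.658 points in those of 3% or more. The bound of 0.5 points was passed by 3.37%, 1.09% and 13.1% of these windows, beside 1.91% of all windows. Relative to the control level, the SD was 16.7% at 1 to 1.5%, 10.1% at 2 to 3% and 14.0% at 3% or more, and 36.3% under 1%. These SDs include windows far out, at -10.7 points under 1%, -15.9 points at 1 to 1.5% and 7.45 points at 3% or more. The central 95% at 2 to 3% ran from -0.473 to 0.439 points, slightly wider than under 1%, unlike the order of the SDs.

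**Figure D4:**
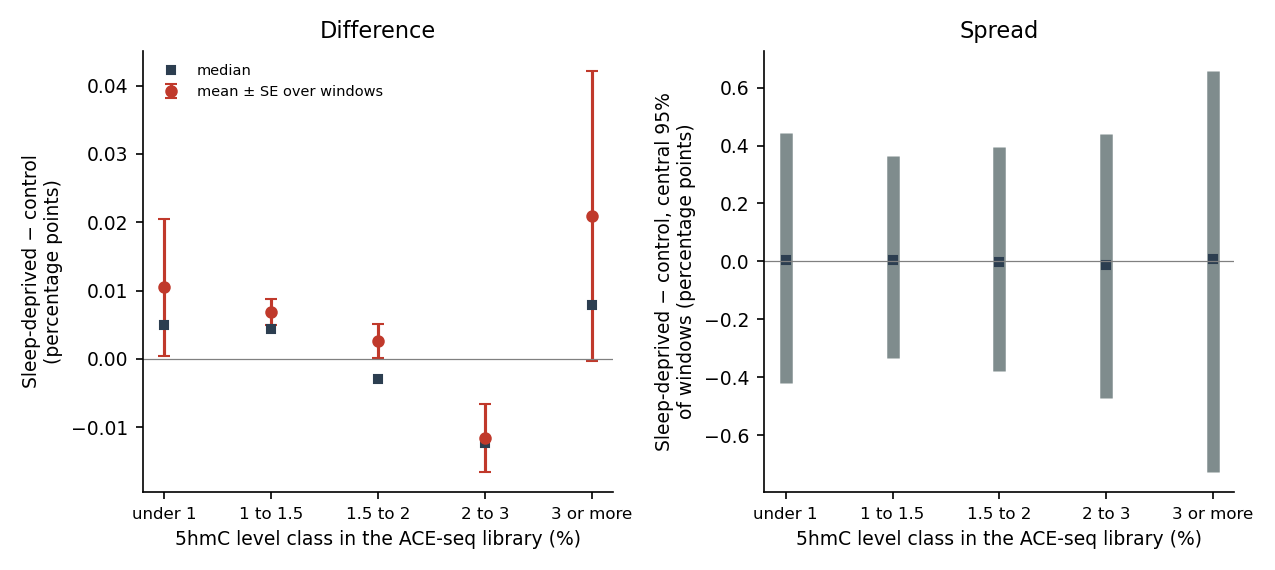
Sleep-deprived minus control (percentage points) in 100 kb windows by level class in the ACE-seq library. Left, the mean with bars of ± SE over windows (circles) and the median (squares), which lie between -0.0123 and 0.0210 points; right, the central 95% of windows (bars) and the median (squares), widest at 3% or more (-0.728 to 0.658 points).

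High and low domains of 5hmC were set on the ACE-seq library alone. High domains were runs of at least 3 windows of 100 kb at 2% or more; there were 295, of 136.4 Mb in all, with a median length of 400.0 kb. In 225 of them a single protein-coding gene covered 50% or more of the domain, and 16 overlapped none. Their mean level was 2.89% in the control, 2.88% in the sleep-deprived library and 2.86% by ACE-seq. The sleep-deprived library was higher in 134 and lower in 161 of them, with a median difference of -0.0146 points, a mean of -0.00524 points and an SD of 0.117 points. Control and sleep-deprived levels had r of 0.981 over the 295 domains.

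The longest high domain lay within Rbfox1, a neuronal splicing regulator, at chromosome 16, 5900001 to 7400000. It had 2.99% in the control, 3.0% in the sleep-deprived library and 2.89% by ACE-seq, a difference of 0.0184 ± 0.0611 points (SE over 150 bins). Cadm2, a synaptic adhesion gene, had 3.87%, 3.96% and 3.95% over 1300 kb (chromosome 16, 66600001 to 67900000). Lrrc4c, encoding a netrin-G ligand, had 2.86%, 3.02% and 2.81% (chromosome 2, 96300001 to 97600000). Both genes were slightly higher in the sleep-deprived library than in either control, by less than 2 SE over bins (0.0966 ± 0.103 points at Cadm2 and 0.158 ± 0.109 points at Lrrc4c against the DDD-seq control). Pde4d, a cyclic AMP phosphodiesterase gene, had 3.07%, 2.98% and 2.92% (chromosome 13, 109000001 to 110300000). The domain of Anks1b, a postsynaptic scaffold gene, had 2.86%, 2.83% and 2.70% (chromosome 10, 89800001 to 91000000). In these 2 domains the sleep-deprived library lay between the controls.

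Over all high domains the difference ran from -0.335 to 0.610 points. The ends of this range are named after their values were seen, with no test. At the lower end was the netrin receptor gene Unc5c, with 3.95% in the control, 3.61% in the sleep-deprived library and 3.81% by ACE-seq. At the upper end was Gabrb2, a GABA-A receptor subunit gene, with 5.25%, 5.85% and 5.77%, so that the ACE-seq library there was near the sleep-deprived one.

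Mean levels at the edges of high domains were similar in both DDD-seq libraries. Edges were set on the ACE-seq library only, so whether their positions coincide between both DDD-seq libraries was not tested. The outermost window of a high domain averaged 2.65% in the control, 2.65% in the sleep-deprived library and 2.64% by ACE-seq. The first window outside averaged 1.68%, 1.70% and 1.60%. The mean step across these edges was thus similar in both DDD-seq libraries. Both DDD-seq libraries were above their flanks of 300 kb in 290 of the 295 domains. Low domains, runs of at least 5 windows at 1.2% or less by ACE-seq, numbered 208 and covered 166.7 Mb. They had 1.09% in the control, 1.1% in the sleep-deprived library and 1.0% by ACE-seq, with the sleep-deprived library higher in 116 and lower in 92. The mean difference was 0.0160 points, and -0.00270 points with bins at 0 left out. Control and sleep-deprived levels had r of 0.597 over the 208 low domains, against 0.981 over high domains. The 3 longest were at Vmn2r91 (3000 kb), a pheromone receptor gene, at the sulfotransferase gene Sult2a4 and at Crisp2, with differences of 0.0515 ± 0.0384, 0.0170 ± 0.0393 and 0.0757 ± 0.0406 points (SE over bins).

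**Figure D5:**
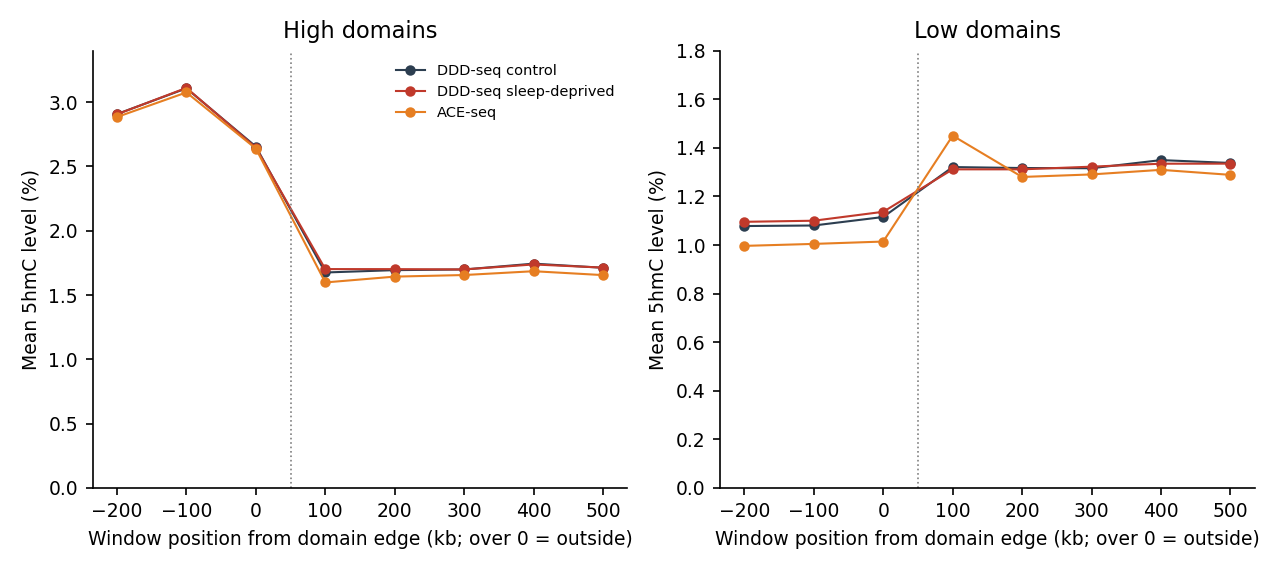
Mean 5hmC level (%) of 100 kb windows by position from the edge of a domain (kb; positive values lie outside, the dotted line marks the edge), for 295 high domains (left) and 208 low domains (right) set on the ACE-seq library. Both DDD-seq lines overlap in each panel, with 2.65% at the inner edge of high domains and 1.68% and 1.70% in the first window outside; the ACE-seq line is shaped by the choice of domains on its own values.

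The 10 highest windows of 1 Mb, among those with at least 80 bins valued in all 3 libraries, were higher in the sleep-deprived library by 0.216 to 0.423 points; with fewer bins, a window reached 0.888 points. These windows were picked by the difference, which is therefore given as a description. At chromosome 3, 13000001 to 14000000, where the RNA-binding protein gene Ralyl lies, the control had 2.51%, the sleep-deprived library 2.78% and the ACE-seq library 2.63%. At the window of Mdga2, which encodes a membrane protein that binds neuroligins (chromosome 12, 66000001 to 67000000), the values were 1.33%, 1.59% and 1.40%. The window of Gria2, an AMPA receptor subunit gene (chromosome 3, 80000001 to 81000000), had 1.98%, 2.20% and 2.07%. Without their most different bin these differences were 0.248, 0.235 and 0.204 points. The window of Plxna2, a semaphorin co-receptor gene, had 1.74%, 1.96% and 1.74%.

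The remaining windows at the upper end were of other kinds. Those at Nlrc3, Nlrp4e and Nlrp9b, of the NOD-like receptor family, and at the secretoglobin gene Scgb2b15 had control levels of 0.973%, 0.864%, 0.671% and 0.836%. In each, 1 bin differed by 7.14 to 25 points, and the differences of 0.409, 0.241, 0.235 and 0.334 points became 0.150, 0.167, 0.116 and 0.187 points without it. A window without protein-coding genes on chromosome 2 (100000001 to 101000000) had the largest of these 10 differences, 0.423 ± 0.341 points (SE over bins), and 0.150 points without its most different bin. Another on chromosome 8 (50000001 to 51000000) had 1.43%, 1.64% and 1.37%. The families named have similar copies in the genome, and reads may be divided between them, so their values are uncertain.

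The 10 lowest windows of 1 Mb reached -0.874 points. The first 2, at chromosome 14, 5000001 to 6000000 and 3000001 to 4000000, hold predicted genes such as Gm3248 and Gm2977. In each, a single bin was listed at 100% in the control and at 0 in both other libraries. Without it the differences turned from -0.874 to 0.159 and from -0.806 to 0.272 points. The others kept their direction without their most different bin. Erbb4, a neuregulin receptor gene (chromosome 1, 68000001 to 69000000), had 3.26% in the control, 3.06% in the sleep-deprived library and 3.10% by ACE-seq. Epha3, an ephrin receptor gene (chromosome 16, 63000001 to 64000000), had 2.65%, 2.43% and 2.54%. The window of the kinase gene Pak7 had 2.69%, 2.48% and 2.47%. The window of Ppp3r1, a calcineurin subunit gene, had 1.87%, 1.68% and 1.69%. The window that Cdh10, a cadherin gene, reaches into had 1.47%, 1.23% and 1.22%, that of Gm7982 had 1.03%, 0.802% and 0.884%, and that of the chromatin remodeller gene Chd8 had 1.49%, 1.31% and 1.34%. Of the 10, the sleep-deprived library was below both others in 6.

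Single bins carried most of the 8 highest and the 8 lowest 100 kb windows. Of all 458 windows past 0.5 points, 119 stayed past it without their most different bin and 21 changed sign. Leaving out that bin tends to bring windows picked by their size under the bound, so the count of 119 does not show what carried them. A bin that differed by at least 5 points was held by 57 of the 458. Among the 8 highest with at least 8 bins valued in all libraries, 7 fell under 50% of their difference without that bin. The exception was the window inside Gria2 (chromosome 3, 80700001 to 80800000), with 4.46% in the control, 5.84% in the sleep-deprived library and 5.40% by ACE-seq. Its difference was 1.38 ± 0.351 points (SE over 10 bins), 1.24 points without the most different bin, 1.15 points over odd and 1.61 points over even bins. The ACE-seq library was also above the DDD-seq control there. Among the 8 lowest, the window inside Galnt13, a glycosyltransferase gene (chromosome 2, 54700001 to 54800000), had 3.04%, 1.79% and 3.33%. Its difference of -1.24 points was -0.640 without the most different bin. The other 7 were at 0 points or of the opposite direction, or, at Gm3488, at -0.773 points instead of -10.7. Windows with 5 to 9 valued bins passed 0.5 points in 17.4% of 190 cases, against 1.79% of 23780 windows with all 10.

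No chromosome stood far from the others. The sleep-deprived library was higher on 14 of 19 autosomes and lower on 5, with a median of 0.00429 points over chromosomes. It was higher on 11 with bins at 0 left out, and on 13 with bins of 20% or more left out. The highest was chromosome 10 (1.66% in the control and 1.67% in the sleep-deprived library, 0.0167 points), with 80 of 128 windows of 1 Mb higher. The lowest was chromosome 14, at -0.0171 points, and at -0.000996 points with bins of 20% or more left out. ACE-seq was lower than the DDD-seq control on all 19.

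Gene lists for cell types and pathways were read over the 100 kb windows that their genes overlap, beside a median difference of 0.00172 points and 50.4% of windows higher over all windows. In 37 windows of circadian clock genes, 16 were higher and 21 lower, with a median of -0.0117 points. The highest was at the transcription factor gene Hlf, with 1.25% in the control, 1.44% in the sleep-deprived library and 1.30% by ACE-seq. The lowest was at the repressor gene Bhlhe41, with 1.75%, 1.45% and 1.47%. In 30 windows of sleep-need and immediate early genes, 12 were higher and 18 lower (median -0.0257 points), from Homer1, a synaptic scaffold gene, with 2.92%, 2.71% and 2.74%, to the kinase gene Sik3, with 2.06%, 2.21% and 2.08%. Stress response genes had 8 of 22 windows higher (median -0.0184 points), with Sgk1 at 2.61%, 2.35% and 2.47% and Xbp1 at 1.2%, 1.32% and 1.32%. None of these 3 lists had a window past 0.5 points, beside 1.91% of all windows. At that share, lists of 37, 30 and 22 windows would hold few or none.

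Receptor lists had few windows past 0.5 points, at shares above the 1.91% that all windows had. A long gene gives several windows to its list, each counted separately, and Gria2 and Gabrb2 give 3 each. The glutamate and GABA receptor lists had median control levels of 1.64% and 1.8%, but both also hold windows of high level. Gabrb2 had 5.25% in the control, and the window inside Gria2 that passed 0.5 points had 4.46%. Among all windows of 3% or more by ACE-seq, 13.1% passed 0.5 points. The part of level in the shares of these lists was not tested. Glutamate receptor genes had 62 of 114 windows higher (median 0.0224 points) and 5 past 0.5 points, 4.39%, 3 of them higher and 2 lower. Its members ran from Gria2 with 2.97%, 3.46% and 3.01% over 3 windows to Grm7 with 1.54%, 1.46% and 1.44%. GABA receptor genes had 24 of 44 higher (median 0.0179 points) and 3 past 0.5 points, 6.82%, all higher, with Gabrb2 at the upper and Gabrd at the lower end (2.22%, 2.0% and 1.89%). Genes of DNA methylation and demethylation had 14 of 27 higher (median 0.0186 points), with Tdg, a DNA glycosylase gene, at 1.53%, 1.65% and 1.50% and Uhrf2 at 2.64%, 2.41% and 2.48%; 1 window was lower by 0.5 points or more, 3.70%.

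Lists of cell types did not share a direction. Granule cell genes had the highest median control level of all lists, 2.20%, with 22 of 45 windows higher and a median difference of -0.0268 points. Among them Neurod1, a transcription factor gene, had 2.94%, 3.25% and 2.88%, and Snap25, of the vesicle fusion machinery, had 4.33%, 3.94% and 4.24%. Purkinje cell genes had 36 of 60 higher (median 0.0359 points), with Foxp2, a transcription factor gene, at the lower end (1.57%, 1.47% and 1.54%). Of other cell types, oligodendrocyte genes had 11 of 20 windows higher (median 0.0275 points), astroglial genes 10 of 17 (0.0386 points), microglial genes 7 of 13 (0.0401 points) and endothelial genes 8 of 18 (-0.0322 points). At the ends of these 4 lists, Ugt8a, of myelin lipid synthesis, had 1.39%, 1.60% and 1.42%, and Cspg4, a marker of oligodendrocyte precursors, 1.38%, 1.26% and 1.26%. The gap junction gene Gja1 had 1.16%, 1.37% and 1.02%, and S100b 1.31%, 1.27% and 1.30%. The integrin gene Itgam, of the microglial list, had 1.31%, 1.21% and 1.22%. The cadherin gene Cdh5 had 1.2%, 1.33% and 1.09%, and the receptor gene Kdr 1.30%, 1.09% and 1.44%. The granule and Purkinje cell lists each had 1 window lower by at least 0.5 points, 2.22% and 1.67%, and the other 4 had none past it. Over all windows the share was 1.91%, at which lists of 13 to 20 windows would hold few or none. The sign of a list's median depended on how it was read. Taken over genes instead of windows, from the same windows, it differed for 3 of the 12 lists: oligodendrocyte (-0.0376 points), astroglia (-0.0123) and DNA methylation (-0.0150). Taken over genes from the bins of gene bodies instead of their windows, it differed from that value for 4 lists: Purkinje cell (0.0103 by windows and -0.0192 by gene bodies), oligodendrocyte (-0.0376 and 0.0941), endothelial (-0.0142 and 0.0119) and sleep need (-0.0244 and 0.0533). The part of the mixture of cell types in the differences above was not tested.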

How the data were processed

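The deposited table was read as giving each library's 5hmC level in a 10 kb bin as a fraction. Its column headers name the libraries and give no unit, and its values lie between 0 and 1. Each level was multiplied by 100 and is given in percent. Per the submitters' processing notes, the authors used FastQC, Trimmomatic and Bismark, and hg19 (human) is the build recorded. The bins, however, are those of mouse chromosomes, and the last bin of each autosome ended 1.33 to 132 kb after the last gene of GRCm38.p6 in RefSeq, so they were treated as GRCm38. The sequence contexts, averaging and minimum coverage behind a fraction are not given here. Libraries were grouped by title, and columns by matching names. Windows, genic classes (overlap of at least 1 bp), level classes and domains were computed with Python 3.11.15, numpy 2.4.6 and pandas 2.3.3, and the window code was tested on simulated data. Named windows are the 10 highest and lowest of 1 Mb and the 8 highest and lowest of 100 kb, each named by the protein-coding gene with the most bases in it; members of gene lists are named at the ends of their range, and domains by length. A few items that this rule names are not reported here. The members and lists were chosen with earlier results of these data known. Alternatives were bins at 0 or of 20% or more left out, scaling, medians, shifted windows, complete windows, other thresholds, gene definitions and classes.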

Additional observations from a re-analysis of the deposited data

How the results depend on the processing

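Of 110 alternative values for 27 results, 70 stayed within the tolerance, 27 moved past it and 13 changed sign. The cause was not tested. The tolerance was 1 SE over windows, bins or domains for a mean, and a factor of 1.5 for a count, an SD or the share of bins higher. It was 10 points for the share of calls that were higher, and 1 over the square root of the number compared for a correlation. The share of bins higher (50.4%) could hardly move by its factor, so its alternatives say little. The tally also counts the bounds of 0.3 and 0.1 points, which could only pass more windows. It counts classes set on a library that is part of the difference too, whose values that choice shifts. These alternatives also say little on how stable a result is. With bins at 0 left out, the bin difference was 0.00154 points, the 100 kb mean 0.00152 and the 1 Mb mean 0.00121, 11 windows of 1 Mb instead of 21 passed 0.2 points, genic minus intergenic was -0.00953, the most and least genic classes of 1 Mb differed by -0.0171, and the difference turned to -0.00548 under 1%, -0.00215 at 3% or more and -0.00270 in low domains. With libraries scaled to one mean, the 100 kb mean was 0.000274, the 1 Mb mean -9.77e-05, and the classes of 1 to 1.5% and 2 to 3% were at 0.00208 and -0.0169; scaling moved CpG-rich start bins to -0.0305, and a bound of 20 CG moved them to -0.0309. With medians of bins, 1011 windows of 100 kb and 52 of 1 Mb passed, the 1 Mb mean was 0.00209, the level classes from low to high were at 0.0235, 0.00453, -0.00165, -0.0181 and -0.00409, and high domains at -0.0201. The lower bounds of 0.3 and 0.1 points passed 2648 and 240 windows, and 10 windows of 1 Mb passed where every bin was needed. Without bins of 20% or more, the class of 3% or more was at -0.00449, the neighbour correlation at 100 kb was -0.000935 and that of odd and even bins -0.00805. Classes set on the DDD-seq control gave 0.193, 0.0269, -0.0413, -0.0585 and -0.0773 points from low to high, and classes set on the sleep-deprived library -0.154, -0.0125, 0.0405, 0.0366 and 0.0879 points; each of these libraries is part of the difference. Genic minus intergenic was negative under all 7 alternatives tried. Without read counts the precision of a bin is unknown, and with 1 library a group differences between animals cannot be told apart from those between libraries. No paired analysis was possible because each group has 1 library.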

Other observations

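Bins of the sex chromosomes were in no comparison. On the X chromosome, 16113 bins had a value in both DDD-seq libraries, with means of 1.46% in the control, 1.47% in the sleep-deprived library and 1.44% by ACE-seq. On the Y chromosome, 7823 bins had means of 0.966%, 1.05% and 1.04%, and the median was 0 in each library.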
